A study of Homo sapiens with 16 samples.

Results

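In LNCaP cells treated with the IRE1 RNase inhibitor MKC8866, 51 genes were higher than in Vehicle cells and were not higher after knockdown of XBP1. They were chosen by their own measured level L, the log2 of the counts per 1000000 fragments (CPM) of a library plus 0.5, from 58051 annotated genes. A gene was kept when its mean L over the 16 libraries was at least 1, which held for 14095 genes, and when the mean of MKC8866 minus Vehicle was at least 0.3, which left 138. All 4 MKC8866 libraries also had to lie above all 4 Vehicle libraries, which held for 7.38% of the 14095 genes and left 106, and the mean of siXBP1 minus siCtrl had to be under 0.1, which left 54. DGAT2, CD59 and BLOC1S1 were then set aside, because they are treated as reported or tested substrates of IRE1, and are given here for reference only. Both comparisons were thus used to choose the genes, so that their levels in them are a description and are given without a test.

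LNCaP is an established human prostate cancer cell line of luminal, androgen-responsive type. In the knockdown experiment the cells had received siRNA by transfection, either the Allstar control (siCtrl) or siRNA against XBP1 (siXBP1), and in the inhibitor experiment they received DMSO (Vehicle) or 10 μM MKC8866 for 24 h. In both experiments thapsigargin, which empties the calcium store of the endoplasmic reticulum (ER), was present at 30 nM for the last 3 h, added 2 days after transfection in the knockdown, so that no group was free of ER stress. Each group had 4 libraries of total RNA, and p-values measure the spread between these libraries. The study's text calls the libraries independent samples, and neither it nor the labels say whether they were separate cultures, so part of the spread may be technical.

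IRE1 is an ER membrane protein with a kinase and an RNase domain. Under ER stress the RNase cuts the XBP1 mRNA at a pair of hairpins, after which the rejoined mRNA encodes the transcription factor XBP1s, which drives genes of protein folding, secretion and ER-associated degradation. The same RNase can cut other mRNAs, many of which are translated at the ER, and the cut mRNAs are then degraded (regulated IRE1-dependent decay, RIDD). A blocked RNase stops both activities, whereas XBP1 knockdown removes XBP1s and leaves the RNase in place, so an mRNA that is higher with the inhibitor alone has the pattern that is looked for in RIDD substrates. The mRNA half-lives and the cleavage itself were not measured in these libraries.

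XBP1 was found at 379, 413, 360.1 and 355 CPM in the 4 siCtrl libraries and at 51.6, 54.8, 54.6 and 53.6 CPM in the 4 siXBP1 libraries, a difference of -2.80 ± 0.053 on the log2 scale (SE). With MKC8866, XBP1 counts, which do not separate the spliced from the unspliced form, were at 537 to 628 CPM against 481 to 539.7 CPM with Vehicle. Between 28713607 and 34509488 fragments were counted per library, and libraries of a group correlated at 0.9962 or above. All 12 luminal markers, KLK3 among them, had a mean L of at least 1, and their summed level was 5049 to 5304 CPM in siCtrl, 4032 to 4148 CPM in siXBP1, 5181 to 5317 CPM in Vehicle and 5647 to 5781 CPM in MKC8866. None of 6 immune and 4 basal markers reached this level, and 3 of 7 stromal markers did, with a sum of 97.9 to 118 CPM in all libraries.

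The 51 genes comprised 39 protein-coding genes, 6 lncRNAs, 4 pseudogenes and 2 other unnamed loci. Their MKC8866 minus Vehicle differences ran from 0.30 to 0.92 with a median of 0.37, against a median of 0.02 over all 14095 genes. BCAM was the only one above 0.7, and the median corresponds to genes such as FITM2, at 27.7 to 31.9 CPM with Vehicle and 35.2 to 40.6 CPM with MKC8866. By edgeR's quasi-likelihood test, 37 of the 51 were called higher with MKC8866 at an adjusted p under 0.05, against 1.36% of the 21045 genes tested, a count that the choice of the genes fixed to a large extent. Same-numbered MKC8866 and Vehicle libraries deviated together, although the labels do not say what the number marks. A fit blocked on that number called 47 of the 51, against 6.0% of all genes. The 14 genes that were not called without the block included 9 of the 12 non-coding or unnamed ones, and all 14 had a library with fewer than 150 counts. Such low counts also occurred among the called genes, as in REPIN1-AS1 and ENSG00000279133, with lowest counts of 36 and 24.

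On the knockdown side the rule set an upper limit only, and many of the genes were below it. The siXBP1 minus siCtrl differences ran from -1.07 to 0.09 with a median of -0.12, against 0.03 over all 14095 genes. Of the 51, 37 were negative, against 6354 of the 14095. The rule had removed every gene at 0.1 or above, which lowers the median of the 51 and raises their shares of low values. In 22 genes the difference lay within 0.1 of 0, against 4747 of the 14095, and in 29 it was under -0.1, which held for 29.1% of all genes. In 14 genes it was -0.3 or lower, against 11.7% of all genes, and in 14 all 4 siXBP1 libraries lay below all 4 siCtrl libraries, against 20.1%. By the same edgeR test 23 were called lower after knockdown, against 18.2% of 21021 genes tested, and 0 were called higher, against 16.5%, for which the rule had left little room. The set therefore holds genes whose mRNA level was close to that of siCtrl and genes that were lower after the knockdown and higher with the inhibitor, and the name "not with knockdown" covers both. For the difference between the responses, whose direction the rule also fixed, 40 of the 51 were called, against 12.7% of 20357 genes.

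**Figure D1:**
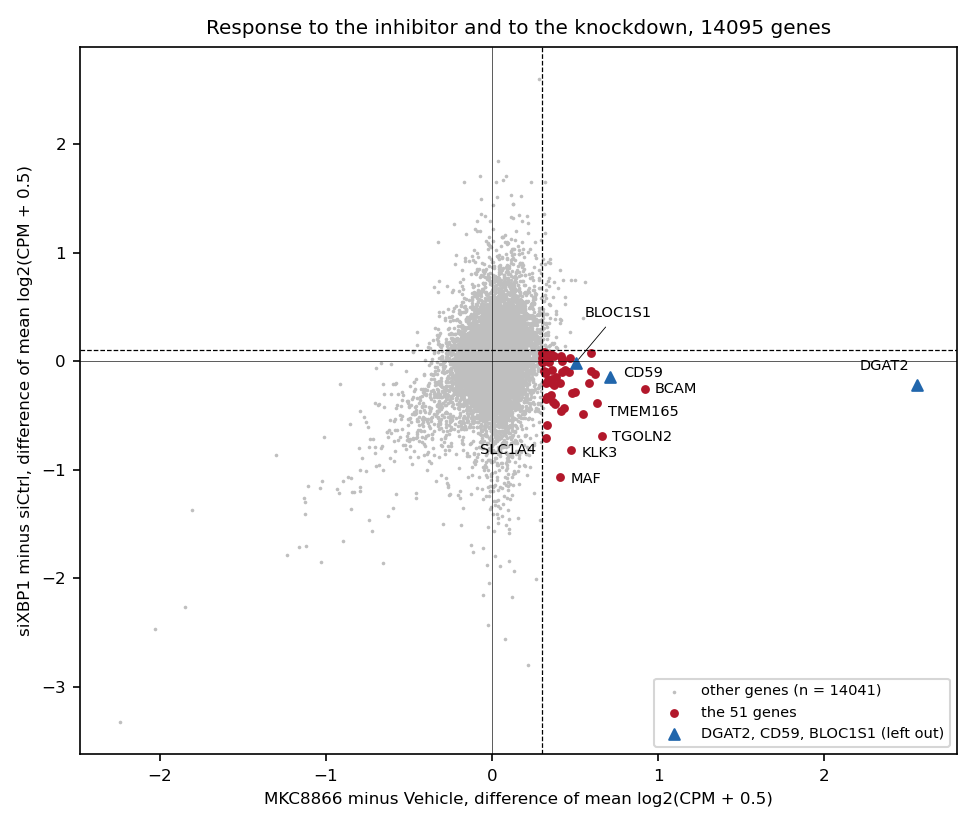
Response to MKC8866 (horizontal axis, MKC8866 minus Vehicle) and to XBP1 knockdown (vertical axis, siXBP1 minus siCtrl), both as differences of mean log2(CPM + 0.5), for 14095 genes, with the 51 genes in red, the 3 genes set aside as blue triangles and the thresholds of 0.3 and 0.1 as dashed lines. Most red points lie between 0.3 and 0.6 on the horizontal axis, and they reach down to -1.07 for MAF on the vertical axis.

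The thresholds cut through a continuous range. PATZ1, RNF227 and the lncRNA ENSG00000251139 lay just inside the limit of 0.3 with MKC8866 minus Vehicle at 0.3005, 0.3006 and 0.304, and TXNIP, which met every other condition, lay just outside with 0.2955. The unnamed genes ENSG00000272631 and ENSG00000264885 were outside as well, with 0.297 and 0.2969. At the knockdown limit of 0.1, CTSO, REPIN1-AS1 and RNF227 were inside with 0.0867, 0.0749 and 0.0715, and TRAF3, SOX9 and USP51 were outside with 0.1015, 0.113 and 0.125.

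**Figure D2:**
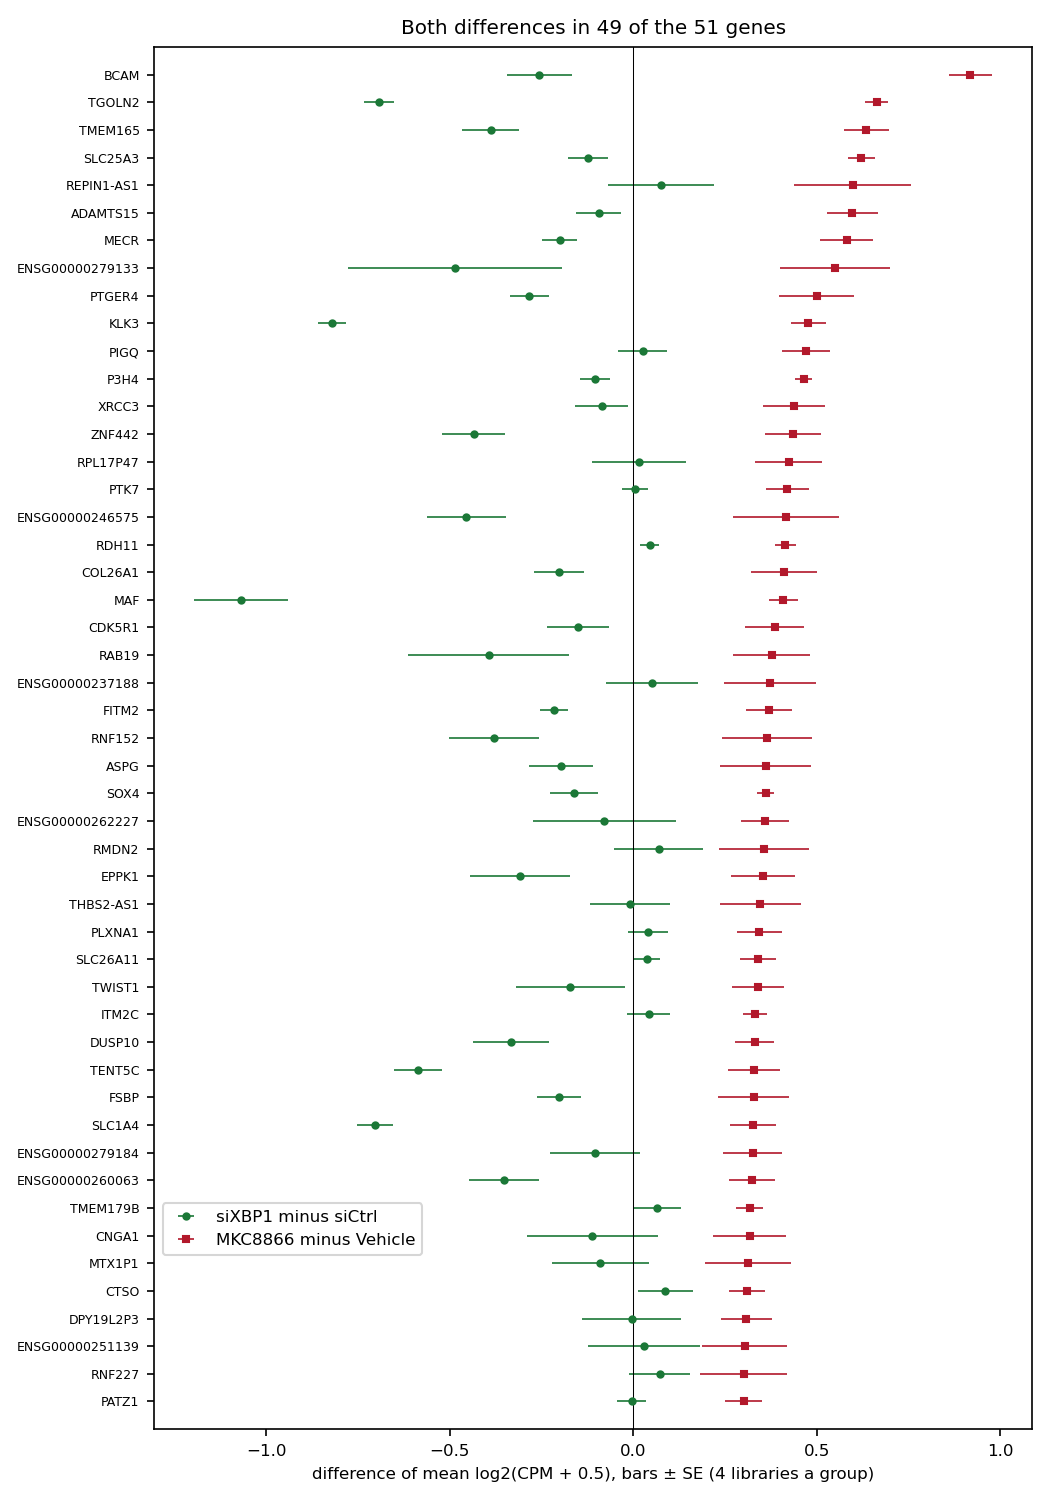
MKC8866 minus Vehicle (red squares) and siXBP1 minus siCtrl (green circles) in 49 of the 51 genes, ordered by the response to MKC8866, as differences of mean log2(CPM + 0.5) with the SE from 4 libraries a group. All red squares lie at 0.30 or above, while the green circles lie from -1.07 (MAF) to 0.09 (CTSO).

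The 7-base loop that IRE1 cuts in XBP1 has the letters CNGCAGN and is closed by a stem. The canonical transcripts of the genes (GENCODE v44, GRCh38) were searched for such a loop closed by at least 5 base pairs, with G-U pairs counted, and 6 of the 39 protein-coding members held at least 1. The sites are shown 5′ to 3′ as DNA letters, with the loop in capitals and the stem in lower case. Those of 5 of the 6 are printed. The XBP1 sites, from its unspliced transcripts, and those found by the same search in the 3 genes set aside come first, to let the members' sites be compared with them.
XBP1 (chr22:28796143-28796161, minus strand): ctgagtCCGCAGCactcag
XBP1 (chr22:28796116-28796136, minus strand): tgcacctCTGCAGCaggtgca
DGAT2 (chr11:75790190-75790206, plus strand): gtggcCTGCAGTgccat
CD59 (chr11:33710139-33710157, minus strand): ttctggCAGCAGCctggag
BLOC1S1 (chr12:55719583-55719601, plus strand): gggcagCTGCAGTctgccc
TMEM165 (chr4:55396342-55396368, plus strand): gcagctgcagCCGCAGCctgtggctgt
MECR (chr1:29230850-29230872, minus strand): cccccgccCGGCAGTggcggggg
PATZ1 (chr22:31326681-31326701, minus strand): tgatattCTGCAGAaatatca
ASPG (chr14:104106869-104106885, plus strand): aggcgCTGCAGGcgctt
RDH11 (chr14:67695707-67695723, minus strand): tgccgCTGCAGCcggca

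The TMEM165 loop carried the same 7 letters as the upstream XBP1 loop and had the longest stem, with 10 pairs, and RDH11 had the letters of the downstream XBP1 loop over a stem of 5 pairs. MECR had a stem of 8 pairs, and PATZ1 of 7. The sites of TMEM165, MECR and ASPG lay in the coding sequence, that of RDH11 in the 5′ UTR, and that of PATZ1 in the 3′ UTR. MECR held another site across an exon junction with 5 pairs, tgctgCGGCAGTtagcg. These are matches of letters and pairing in the annotated sequence, and whether IRE1 cuts them was not tested.

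A loop of this kind was in 6 of 39 protein-coding members, or 15.4% (95% Wilson interval 7.25 to 29.7%), and in 693 of 11694 protein-coding genes with a mean L of at least 1, or 5.93%. The members' transcripts were richer in G and C, with a median GC of 54.2% against 48.0%, and among transcripts at or above the members' median GC the shares were 3 of 20, or 15% (5.24 to 36.0%), and 288 of 3779, or 7.62%. That comparison was added after the data had been seen. Without the stem, the loop letters occurred in 39 of 39 members and in 96.8% of all genes, and CTGCAG, the core of the downstream XBP1 loop, in 34 of 39 members, or 87.2%, and in 85.3% of all genes. The median transcript length was 2958 bases for the protein-coding members and 3437 bases for all protein-coding genes with a mean L of at least 1.

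Of the 39 proteins, 22 had a hydrophobic segment, defined as 19 residues with a mean Kyte-Doolittle hydropathy of at least 1.6, or 56.4% (41.0 to 70.7%), against 31.6% of 11694. Within the first 40 residues, where signal peptides and signal anchors lie, a segment was found in 11, or 28.2% (16.5 to 43.8%), against 10.1%. Among these 11 were KLK3, PTGER4, PTK7, PLXNA1, COL26A1, TGOLN2, TMEM165, RDH11, RMDN2 and TMEM179B. The count is of such windows and not of signal peptides. The secreted ADAMTS15 and the surface protein BCAM reached only 1.332 and 1.142 in the first 40 residues and were not counted. Of the genes set aside, CD59 had a segment in the first 40 residues and DGAT2 further on. The intervals cover counting error only, and the shares are descriptions of the chosen genes.

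**Figure D3:**
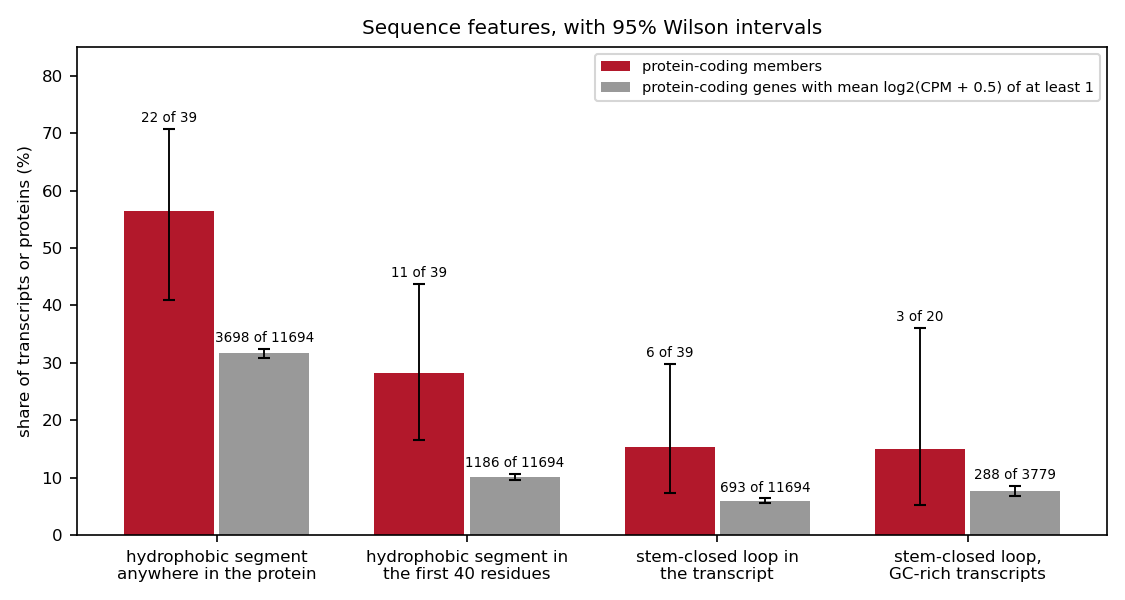
Share (%) of the protein-coding members (red) and of all protein-coding genes with a mean log2(CPM + 0.5) of at least 1 (grey) that carried each sequence feature, with 95% Wilson intervals and the counts above the bars. The red bars stand at 56.4%, 28.2%, 15.4% and 15% and the grey bars at 31.6%, 10.1%, 5.93% and 7.62%, and the red interval of the loop in GC-rich transcripts includes the grey bar.

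Among 11 genes for cell surface and extracellular proteins, BCAM (chr19:44809059-44821420, plus strand), the Lutheran blood group protein and a receptor for laminin, had the largest difference of all 51 genes. It was at 23.5, 20.7, 24.4 and 23.0 CPM in the Vehicle libraries and at 45.2, 41.4, 42.7 and 45.5 CPM in the MKC8866 libraries, a ratio of 1.89 on the scale of CPM plus 0.5 and a log2 difference of 0.92 ± 0.059 (SE). In siCtrl it was at 19.1, 21.8, 20.7 and 20.8 CPM and in siXBP1 at 18.9, 17.7, 14.6 and 17.7 CPM. The 4 MKC8866 libraries stood above the other 12, and all siXBP1 libraries lay below all siCtrl libraries, by -0.26 ± 0.088 on average.

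KLK3 (chr19:50854915-50860764, plus strand), which encodes the prostate-specific antigen, a secreted protease under androgen control, was the most abundant of the 51 per exon length, at a mean of 138 CPM per kilobase of exon (RPKM). It was at 676, 606, 674 and 645 CPM with Vehicle and at 924, 865, 951 and 882 CPM with MKC8866, a difference of 0.48 ± 0.048. In the knockdown experiment it went from 630.4, 628, 646 and 676 CPM in siCtrl to 344, 374, 370.5 and 370.4 CPM in siXBP1, a difference of -0.82 ± 0.037. The groups did not overlap in either experiment, and KLK3 was thus higher with the inhibitor and lower after the knockdown. Of the 17 genes tested of a list of prostate luminal genes, 2 were called higher, KLK3 among them, and 0 lower with MKC8866, and 1 was called higher and 11 lower after knockdown. Over all genes tested the shares called were 1.36% higher and 3.11% lower with MKC8866, and 16.5% higher and 18.2% lower after knockdown. The summed luminal markers given above include KLK3, which was itself chosen for being higher with MKC8866. Without KLK3, a sum added after the data had been seen, the other 11 markers summed to 4561 to 4643 CPM with Vehicle, 4778 to 4830.1 CPM with MKC8866, 4419 to 4649 CPM in siCtrl and 3688 to 3777 CPM in siXBP1, with no overlap in either experiment. Their part in the KLK3 values was not tested. All libraries were of the LNCaP line, and bulk RNA does not show whether fewer of its cells expressed these genes or each cell held less of their RNA.

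SLC1A4, a transporter of neutral amino acids, had a similar course. Its levels were 46.6, 40.7, 48.7 and 46.0 CPM with Vehicle and 56.3, 54.1, 59.0 and 59.0 CPM with MKC8866, a difference of 0.33 ± 0.062. They were 42.2, 46.1, 46.7 and 47.9 CPM in siCtrl and 26.5, 27.7, 27.9 and 29.3 CPM in siXBP1, a difference of -0.71 ± 0.049. None of these groups overlapped with its control.

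PTK7, a receptor pseudokinase of Wnt signaling, was higher with the inhibitor and near its control after the knockdown. It was at 48.9, 43.4, 49.6 and 45.0 CPM with Vehicle and 65.6, 58.8, 61.8 and 64.4 CPM with MKC8866, a difference of 0.42 ± 0.058. With 42.5, 44.8, 44.2 and 43.7 CPM in siCtrl and 45.2, 44.6, 41.0 and 45.0 CPM in siXBP1, the knockdown difference was 0.0051 ± 0.036, and these groups overlapped. PLXNA1, a plexin that receives semaphorin signals, differed by 0.34 ± 0.060 with MKC8866 and by 0.040 ± 0.055 after knockdown, and ITM2C, an integral membrane protein of the BRICHOS family, by 0.33 ± 0.034 and 0.042 ± 0.058.

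ADAMTS15, a secreted metalloprotease, was weakly expressed, at 4.67, 4.11, 4.74 and 4.33 CPM with Vehicle and 7.80, 6.53, 6.64 and 7.07 CPM with MKC8866, a difference of 0.60 ± 0.069. In siCtrl and siXBP1 it was at 3.65 to 4.47 and 3.53 to 3.90 CPM, which overlapped. PTGER4, the EP4 receptor for prostaglandin E2, was at 4.39, 5.36, 5.62 and 5.18 CPM with Vehicle and 8.40, 6.43, 7.46 and 7.62 CPM with MKC8866. Its siCtrl libraries, at 7.98, 7.24, 8.21 and 8.35 CPM, were in the range of MKC8866 rather than of Vehicle, and its siXBP1 libraries were lower, at 6.65, 6.71, 6.12 and 6.26 CPM. The differences of PTGER4 were 0.50 ± 0.10 with MKC8866 and -0.28 ± 0.053 after knockdown, and its MKC8866 level was above its own control but not above siCtrl.

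Other surface and extracellular genes were COL26A1, a collagen, and CNGA1, a cyclic nucleotide-gated channel. Their MKC8866 differences were 0.41 ± 0.090 and 0.32 ± 0.099, and their knockdown differences -0.20 ± 0.068 and -0.11 ± 0.18. In the group of 11, 10 were called higher with MKC8866, with and without the replicate block, CNGA1 being the exception, against 1.36% of all genes without the block. After knockdown 5 were called lower, against 18.2% of all genes. A hydrophobic segment was found in 10 of the 11 proteins, against 31.6% of all, a count that their grouping as surface and extracellular proteins largely fixed.

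A group of 11 genes encodes proteins of the ER, the Golgi, lysosomes or vesicles, and TGOLN2 (chr2:85318020-85328425, minus strand), the trans-Golgi network protein TGN46, led them. It was at 102, 101, 104 and 98.6 CPM with Vehicle and at 161, 153, 161 and 168 CPM with MKC8866, a ratio of 1.58 and a difference of 0.66 ± 0.031. After knockdown it went from 91.4, 101, 102 and 96.5 CPM to 61.8, 60.4, 58.1 and 60.3 CPM, a ratio of 0.618 and a difference of -0.69 ± 0.040. The 2 responses of TGOLN2 were of about equal size and opposite sign, with no overlap between groups in either experiment.

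TMEM165 (chr4:55395957-55453397, plus strand), a Golgi membrane protein needed for glycosylation, holds the loop with the longest stem. It was at 70.3, 72.3, 64.5 and 68.6 CPM with Vehicle and 113, 112, 108 and 97.2 CPM with MKC8866, a difference of 0.64 ± 0.061, and at 58.5, 48.5, 54.9 and 52.3 CPM in siCtrl and 41.3, 37.3, 44.7 and 39.9 CPM in siXBP1, a difference of -0.39 ± 0.078. All siXBP1 libraries were below all siCtrl libraries, and the siCtrl libraries were themselves below those of Vehicle.

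RDH11 (chr14:67676801-67695814, minus strand), an ER retinol dehydrogenase first described as an androgen-regulated gene of the prostate, was the second most abundant member per length (88.0 RPKM) and stayed near its control after the knockdown. It was at 462, 465, 445 and 454 CPM with Vehicle and 597, 614, 589 and 634 CPM with MKC8866, a difference of 0.41 ± 0.028. In siCtrl it was at 423, 434, 421 and 452 CPM and in siXBP1 at 441, 444, 444 and 453 CPM, which overlapped, with a difference of 0.044 ± 0.025.

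PIGQ, a subunit of the ER enzyme that starts the GPI anchor, was at 33.1, 30.2, 35.7 and 32.0 CPM with Vehicle and 48.1, 43.0, 47.8 and 43.4 CPM with MKC8866, and its knockdown difference was 0.025 ± 0.066. P3H4, which takes part in collagen modification in the ER, differed by 0.46 ± 0.024 with MKC8866 and -0.10 ± 0.041 after knockdown. FITM2, an ER protein of lipid droplet formation, differed by 0.37 ± 0.062 and -0.22 ± 0.038. SLC26A11, a sulfate transporter, and CTSO, a cysteine cathepsin, differed by 0.34 ± 0.049 and 0.31 ± 0.049 with MKC8866 and by 0.037 ± 0.035 and 0.087 ± 0.075 after knockdown. The GTPase RAB19 and the lysosomal ubiquitin ligase RNF152, both under 8 CPM, differed by 0.38 ± 0.11 and 0.36 ± 0.12 with MKC8866 and by -0.39 ± 0.22 and -0.38 ± 0.12 after knockdown. In this group 10 of 11 were called higher with MKC8866, against 1.36% of all genes, and 11 with the replicate block, which added RNF152. After knockdown 7 were called lower, against 18.2% of all genes.

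**Figure D4:**
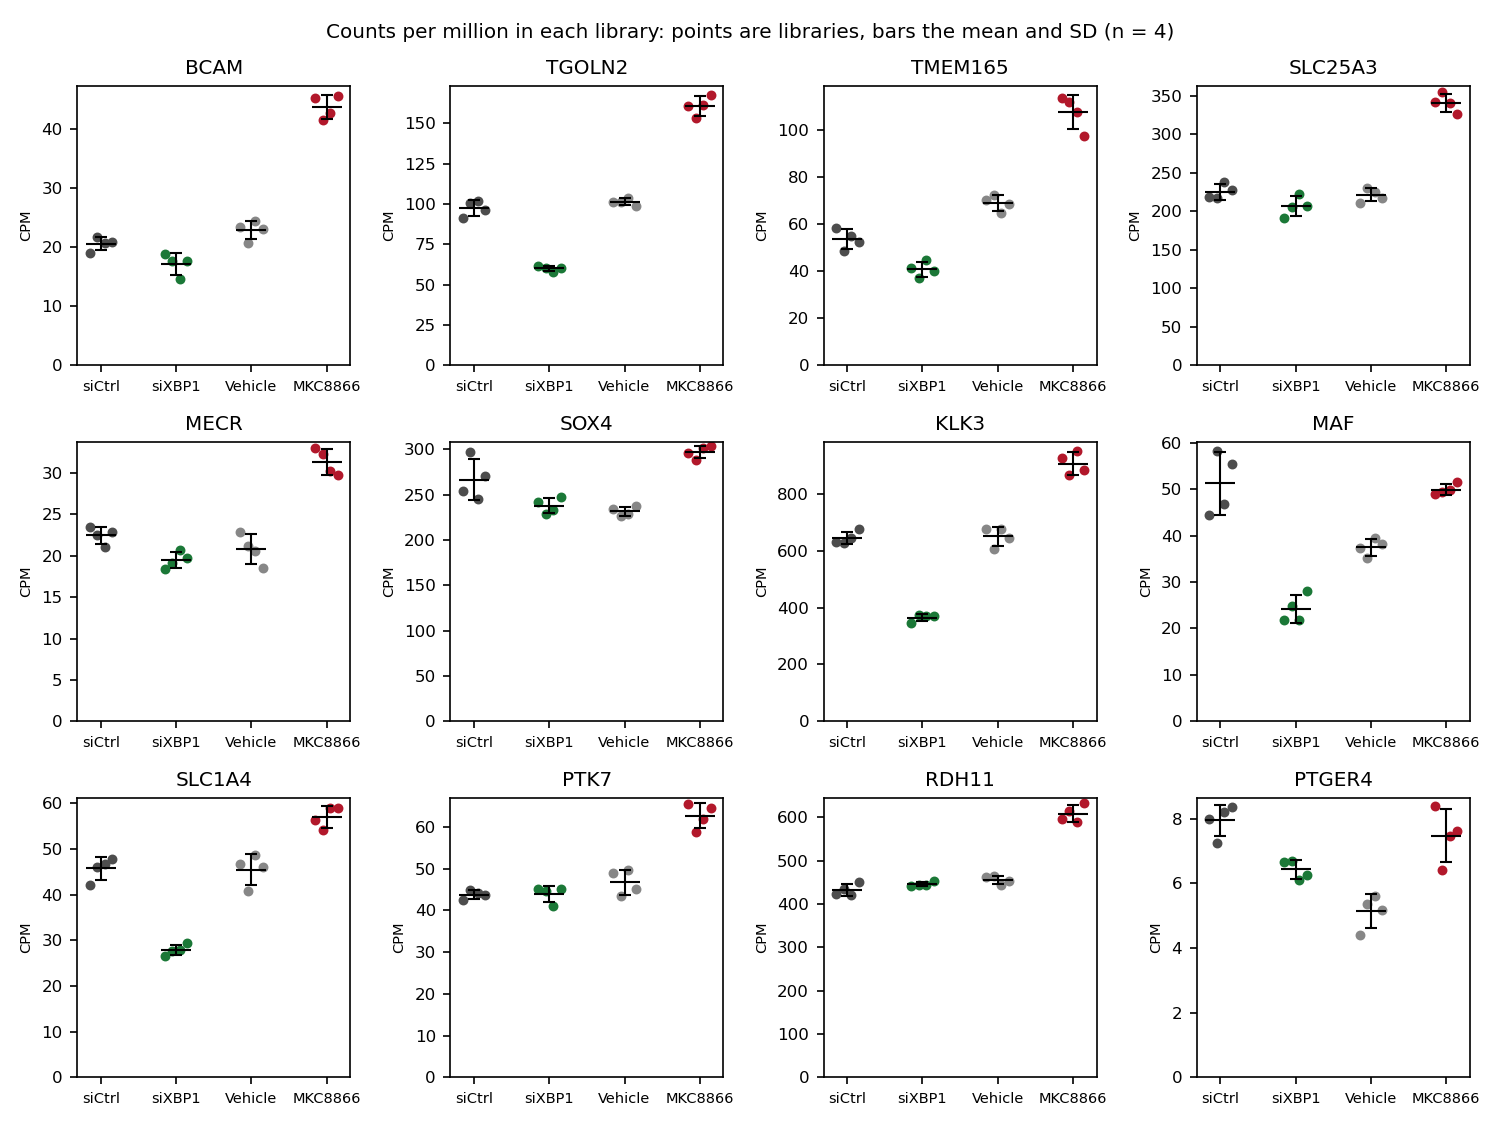
CPM of 12 of the 51 genes in each of the 16 libraries, with the mean and SD of each group of 4, on axes that start at 0. In all 12 panels the MKC8866 libraries lie above the Vehicle libraries. In MAF and PTGER4 the siCtrl libraries reach the MKC8866 level, and in SOX4 a siCtrl library does. In SLC25A3, SOX4, PTK7 and RDH11 the siCtrl and siXBP1 libraries overlap.

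Both genes for mitochondrial proteins had large differences among the 51. SLC25A3, the phosphate carrier of the inner membrane, was at 211, 231, 226 and 218 CPM with Vehicle and 342, 354, 341 and 326 CPM with MKC8866, a difference of 0.62 ± 0.037. After knockdown it was at 191, 206, 222 and 207 CPM against 218, 217, 238 and 227 CPM in siCtrl, a difference of -0.12 ± 0.054, and the groups overlapped. MECR, a reductase of mitochondrial fatty acid synthesis, was at 22.9, 21.2, 20.6 and 18.5 CPM with Vehicle and 33.0, 32.2, 30.2 and 29.7 CPM with MKC8866, a difference of 0.58 ± 0.071. Its loop sites lay far apart, starting at positions 63 and 843 of the transcript. Its siCtrl and siXBP1 levels, 23.4, 22.5, 21.1 and 22.8 CPM and 18.4, 19.1, 20.7 and 19.7 CPM, did not overlap and differed by -0.20 ± 0.048. Neither protein is an ER client. Both genes were called higher with MKC8866, a direction that the rule had set, against 1.36% of all genes. Both were called lower after knockdown, against 18.2%.

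Of the 7 genes for nuclear proteins, MAF, a bZIP transcription factor, had the lowest knockdown value of all 51. It was at 44.3, 58.3, 46.8 and 55.4 CPM in siCtrl and 21.7, 24.9, 21.8 and 28.1 CPM in siXBP1, a difference of -1.07 ± 0.13, and at 37.2, 35.1, 39.5 and 38.1 CPM with Vehicle and 49.0, 49.3, 49.7 and 51.6 CPM with MKC8866, a difference of 0.41 ± 0.039. The siCtrl libraries of MAF were above those of Vehicle, at a log2 difference of 0.44, and spanned the MKC8866 range.

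SOX4, a transcription factor of the SRY family, was the third most abundant member per length (44.2 RPKM), with 234, 227, 228 and 237 CPM with Vehicle and 296, 289, 302 and 303 CPM with MKC8866. Its difference was 0.36 ± 0.022 with MKC8866 and -0.16 ± 0.066 after knockdown, from 245 to 297 CPM to 229 to 248 CPM, which overlapped. ZNF442, a zinc finger protein, was at 10.5, 12.6, 12.4 and 13.7 CPM with Vehicle and 16.6, 16.5, 17.1 and 16.7 CPM with MKC8866, and at 11.4, 12.9, 11.7 and 11.7 CPM in siCtrl and 8.11, 10.1, 7.90 and 8.77 CPM in siXBP1. Its differences of 0.43 ± 0.076 and -0.43 ± 0.085 were equal in size and opposite in sign.

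PATZ1, a zinc finger regulator of transcription, was the member with the knockdown difference nearest to 0, at -0.0045 ± 0.040, with 38.2, 42.2, 41.0 and 42.6 CPM in siCtrl and 41.4, 39.8, 40.2 and 42.0 CPM in siXBP1. With MKC8866 it was at 60.2, 55.0, 61.2 and 61.3 CPM against 51.6, 47.3, 46.4 and 47.2 CPM with Vehicle. TWIST1, a transcription factor of epithelial to mesenchymal transition, differed by 0.34 ± 0.072 with MKC8866 and -0.17 ± 0.15 after knockdown, at under 6 CPM. XRCC3, which acts in homologous recombination, and FSBP share 76.68% and 85.61% of their exon bases with other genes, chiefly KLC1 and RAD54B. KLC1 and RAD54B had MKC8866 differences of 0.12 and 0.12, against 0.44 for XRCC3 and 0.33 for FSBP. All 7 genes were called higher with MKC8866, against 1.36% of all genes, and 4 were called lower after knockdown, against 18.2%.

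The other 8 protein-coding genes included TENT5C, a poly(A) polymerase that acts on mRNAs of secreted proteins, which was at 3.79, 4.22, 4.54 and 3.86 CPM with Vehicle and 4.77, 5.56, 5.31 and 5.48 CPM with MKC8866. In siCtrl it was at 6.92, 6.75, 6.39 and 6.29 CPM, above all MKC8866 libraries, and in siXBP1 at 4.56, 3.76, 4.48 and 4.11 CPM, a difference of -0.59 ± 0.065. DUSP10, a phosphatase of the stress kinases JNK and p38, differed by 0.33 ± 0.054 with MKC8866 and -0.33 ± 0.10 after knockdown. The cytoskeletal linker protein EPPK1 differed by 0.35 ± 0.088 and -0.31 ± 0.14, with siCtrl libraries that ranged from 92.5 to 142 CPM. CDK5R1, the activator of CDK5, differed by 0.39 ± 0.080 with MKC8866, and ASPG, an asparaginase, RMDN2, RNF227 and TMEM179B by 0.36 ± 0.12, 0.36 ± 0.12, 0.30 ± 0.12 and 0.32 ± 0.038. TMEM179B shares 30.35% of its exon bases with other genes, chiefly TMEM223 on the opposite strand, which differed by 0.029 with MKC8866. Of these 8, 5 were called higher with MKC8866, against 1.36% of all genes, and 7 with the replicate block, which added ASPG and RNF227 but not RMDN2. After knockdown 3 were called lower, against 18.2%.

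The 12 non-coding, pseudogene or unnamed members were low, with at most 6.64 CPM in a library (ENSG00000251139), and 3 were called higher with MKC8866, against 1.36% of all genes. With the replicate block 10 of the 12 were called, against 6.0%, and after knockdown 2 were called lower, against 18.2%. REPIN1-AS1, antisense to REPIN1, had the largest MKC8866 difference among them, 0.60 ± 0.16, with 1.22, 2.04, 1.73 and 1.35 CPM with Vehicle and 2.39, 2.21, 2.88 and 3.07 CPM with MKC8866, and REPIN1 itself differed by 0.37. The libraries were stranded but fragments were counted without regard to strand, and fragments that overlapped both genes of a pair were dropped. A fragment elsewhere in REPIN1-AS1 was counted whichever strand it came from, which also holds for ENSG00000260063, antisense to ARID1A. The pseudogene RPL17P47 shares 34.81% of its exon bases with other genes.

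The pseudogene ENSG00000246575 lay next to a member and ended 1490 bases downstream of TGOLN2, on the other strand. ENSG00000246575 was at 1.39, 1.38, 2.16 and 2.02 CPM with Vehicle and 2.29, 2.24, 2.53 and 2.75 CPM with MKC8866, and at 1.91 to 2.32 and 1.10 to 1.66 CPM in siCtrl and siXBP1. Its differences of 0.42 ± 0.14 and -0.45 ± 0.11 had the signs of those of TGOLN2, its neighbour. MTX1P1 differed by 0.31 ± 0.12 and -0.090 ± 0.13, while MTX1, the gene it is a copy of, differed by -0.24 with MKC8866. Whether the reads of ENSG00000246575 belong to a longer TGOLN2 transcript was not tested.

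ENSG00000279133, another low locus with a large knockdown value, shows how few counts some values rest on. It was at 2.12, 1.98, 0.820 and 0.767 CPM in the 4 siXBP1 libraries, with a lowest count of 24, so its knockdown difference of -0.49 ± 0.29 has a wide error. ENSG00000260063, named above, differed by 0.32 ± 0.063 with MKC8866 and by -0.35 ± 0.096 after knockdown. THBS2-AS1, DPY19L2P3, ENSG00000237188, ENSG00000251139, ENSG00000262227 and ENSG00000279184 make up the rest, with knockdown differences from -0.10 to 0.051.

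The controls of the experiments, which differ in transfection and in the time of pretreatment and so cannot be told apart in these respects, were not at the same level in all of the genes. In one fit of the 16 libraries 8 of the 51 were called higher and 5 lower in siCtrl than in Vehicle, against 7.65% and 7.39% of the 20357 genes tested. The 8 were TENT5C, PTGER4, MAF, RAB19, ASPG, DUSP10, PLXNA1 and SOX4, and the 5 were RNF152, TMEM165, CTSO, PATZ1 and P3H4. The siCtrl minus Vehicle differences were largest in TENT5C (0.63) and PTGER4 (0.59). In 29 of the 51 genes all 4 MKC8866 libraries lay above all 12 others, BCAM, TGOLN2, TMEM165, SLC25A3, MECR, KLK3, RDH11 and PTK7 among them, against 1.62% of all 14095 genes, although the order against Vehicle was set by the rule. In 46 genes the highest group mean was that of MKC8866, against 24.1% of all genes, and in 5 that of siCtrl, against 20.3%. The lowest mean was that of siXBP1 in 28, against 33.8%, of Vehicle in 16, against 19.3%, and of siCtrl in 7, against 33.6%. By the rule MKC8866 could not be lowest and Vehicle could not be highest, so these counts are in part fixed by it.

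For reference, DGAT2, the acyltransferase that completes triglyceride synthesis, was at 6.33 to 7.51 CPM with Vehicle and 46.4, 39.5, 43.2 and 42.0 CPM with MKC8866, a difference of 2.56 ± 0.070 that no member came near. CD59, a GPI-anchored inhibitor of complement, differed by 0.71 ± 0.048 and BLOC1S1, a subunit of a complex of lysosome-related organelles, by 0.51 ± 0.15. These 3 were the only ones called higher with MKC8866 among 17 tested genes of a list of reported RIDD substrates, of which 0 were called lower, against 1.36% and 3.11% of all genes. None of the 20 XBP1s target genes of secretion and ER-associated degradation was a member, and all 20 were called lower in both experiments, against 3.11% of all genes with MKC8866 and 18.2% after knockdown.

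The promoters of 29 of the 51 genes, 250 bases before to 50 after the start (RefSeq, GRCh38.p14), were searched on both strands for 3 motifs. TGACGTG, the core of the XBP1s and ATF6 site, was in 0 of the 29 and in 2.58% of 10158 promoters. TGACTCA, the AP-1 site, was in that of TMEM179B only, or 3.45% against 2.66%. The ER stress element CCAAT, 9 bases and CCACG was in 0 of 29 and in 0.138% of all. With 29 promoters, counts of 0 allow shares of up to 11.7% (Wilson), so that these windows could not show a difference.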

How the data were processed

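RNA-seq data of 16 LNCaP libraries, 4 each of siCtrl, siXBP1, Vehicle and MKC8866, were analysed. The authors deposited fragment counts per gene, not normalized, which they made by paired-end alignment to GRCh38 (hg38) with STAR 2.5.2a and counting with featureCounts 1.5.0, as the submitters' processing notes name them. Per the file headers the annotation was from Ensembl, no strand option was set although the kit was stranded, and fragments that overlapped several genes were dropped. Between 28713607 and 34509488 fragments were counted per library, so counting error matters mainly for members with few counts, of which the lowest was 24. There were 0 columns that could not be assigned to a sample.

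The members and the gene lists were chosen with earlier results of these data known. Levels are CPM by column total, and differences are of mean log2(CPM + 0.5), with the SE from the group variances. Calls are from edgeR 4.0.16 (R 4.3.3, TMM, quasi-likelihood F test, two-sided, Benjamini-Hochberg over all genes tested, adjusted p under 0.05) after dropping genes in which no library of a group exceeded 5 counts, in a model per experiment, or in all 16 libraries for the difference of the responses and of the controls. The study itself used DESeq2, which was run as an alternative (1.42.0), as were other size factors, filters, pseudocounts and thresholds, a replicate block and the removal of each library.

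Same-numbered MKC8866 and Vehicle libraries deviated together (correlations of 0.1248 to 0.4287), whereas those of siXBP1 and siCtrl did not (-0.011 to 0.0712). Correlations between MKC8866 and Vehicle libraries of different numbers ran from -0.2866 to 0.1856. MKC8866 replicate 3 correlated more with Vehicle replicate 1 (0.1729) than with Vehicle replicate 3 (0.1248). The labels do not say what a number marks, so the replicate block rests on an assumed pairing.

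Values are given for the 12 members with the largest MKC8866 difference, the 8 with the lowest knockdown difference, the 8 with the highest level, the 6 with a knockdown difference closest to 0, members of a list, and the 3 genes on either side of each threshold. Values of other members were added after they had been seen, as were the role groups. Sequence features were taken from GENCODE v44 canonical transcripts (GRCh38), promoters from a RefSeq table of GRCh38.p14. Some items are not reported here, although counts over the members include them.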

Additional observations from a re-analysis of the deposited data

Results flagged for a closer look

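In 10 of 204 groups of 4 libraries, 1 library of a member stood apart from the other 3 by Dixon's criterion, and chance alone flags about 1 in 20 such groups. With MKC8866, RMDN2 was at 2.857 CPM in replicate 1 against 2.075 to 2.191 in the others, PLXNA1 at 57.5 CPM in replicate 2 against 66.13 to 67.33, and FSBP at 6.152 CPM in replicate 1 against 7.531 to 7.602. In siXBP1, CTSO was at 27.03 CPM in replicate 3 against 21.74 to 22.45, PTK7 at 41.05 CPM in replicate 3 against 44.61 to 45.21, and TMEM179B at 35.41 CPM in replicate 3 against 39.33 to 40.08. Also in siXBP1, TWIST1 was at 2.995 CPM in replicate 1 against 4.648 to 4.795 and KLK3 at 344.4 CPM in replicate 1 against 370.4 to 374.5. PLXNA1 was at 53.52 CPM in siCtrl replicate 1 against 59.96 to 60.99, and ENSG00000251139 at 3.658 CPM in Vehicle replicate 3 against 4.826 to 4.875.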

How the results depend on the processing

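The rule gave 91 genes with no minimum on mean L, and 22 each with a knockdown difference within 0.1 of 0 and with an MKC8866 difference of at least 0.4. With TMM-scaled library sizes it gave 47 genes (43 of the 51), with a pseudocount of 1 it gave 44 (40 of the 51) and with 0.1 it gave 56 (45 of the 51). Leaving out each library gave 49 to 93 genes, the highest without MKC8866 replicate 2, of which 50 were among the 51, since fewer libraries then have to lie apart. Without any 1 Vehicle or other MKC8866 library it gave 62 to 75. The calls ranged over the removed libraries from 30 to 35 with MKC8866, from 18 to 22 after knockdown and from 38 to 42 for the difference of the responses. With all libraries kept, the shares of all genes called in these directions were 1.36%, 18.2% and 12.7%. Under the replicate block, which assumes that libraries of the same number form pairs, 47 members were called with MKC8866, against 6.0% of all genes. On same-number differences 56 genes met the rule. In the knockdown experiment, whose same-number libraries did not deviate together, the block left 23 calls, and 42 were called for the difference of the responses. The shares of all genes called in these blocked fits were not counted, so nothing is read from these counts. The differences of the named genes moved by less than the SD of a difference of single libraries in all 660 alternatives. Where a replicate number was left out this was fixed in advance, since dropping 1 of 4 libraries cannot move a group mean that far. Those alternatives thus say nothing on stability, and only the other scaling and the other pseudocount could have moved a value beyond that limit. A hydropathy of 1.8 left a segment in 51.3% of the members' proteins, against 23.6% of 11694. In the first 40 residues it left a segment in 28.2%, against 7.36%. Depth limits the 17 members with under 100 counts in a library.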

Other observations

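Other gene lists held calls but no member. Of 21 AP-1 and immediate early genes tested, 9 were called higher with MKC8866 and 0 lower (edgeR, adjusted p under 0.05), against 1.36% and 3.11% of all genes, among them FOS, JUN, EGR3, KLF6 and ZFP36. After knockdown 10 of the 21 were called higher and 4 lower, against 16.5% and 18.2% of all genes. Of 17 ER chaperone genes of the ATF6 type, 13 were called lower and 0 higher with MKC8866, while 8 were called lower and 5 higher after knockdown. Of 25 genes of cholesterol and fatty acid synthesis, 0 were called with MKC8866, and 14 were called lower and 5 higher after knockdown.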
